A study of Sus scrofa with 12 samples.

Results

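MEF2A and MEF2C, 2 members of the MEF2 family of transcription factors, were examined for N6-methyladenosine (m6A) in pig back muscle. Members were the rows of 6 peak lists whose gene was MEF2A or MEF2C, 30 of 13487 peaks and 2 of 2159 genes with a peak. The lists came from longissimus dorsi of 5-day-old pigs of the Large White and Ningxiang breeds, with 3 numbered replicates per breed and no treatment. Each list came from methylated RNA immunoprecipitation and sequencing: fragmented mRNA was enriched with an m6A antibody and set against an unenriched input of the same replicate. The labels do not say whether each replicate was its own pig, so the p-values reflect the spread over these 6 lists, and that spread may be technical. The tissue was whole muscle, so fibres and the other cells in it cannot be told apart, nor can fewer cells of a type and less RNA per cell.

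MEF2 proteins bind A/T-rich elements in the promoters and enhancers of muscle genes through a MADS box and an adjoining MEF2 domain. In skeletal muscle they act together with the myogenic bHLH factors MYOD1, MYF5, MYF6 and MYOG, and class IIa histone deacetylases hold them in check until calcium and kinase signals release them. MEF2C also works in endothelial, immune and neural cells. m6A is an internal mark of mRNA, written by a methyltransferase complex in the nucleus and often found in long exons and around stop codons; it can affect splicing, translation and decay. A peak is a stretch where the antibody enriched fragments over input. It does not locate the modified base.

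Lists held 2214 to 2533 peaks in Large White and 2034 to 2222 in Ningxiang, and their sequencing depth is unknown. A gene or exon with no listed peak may still carry m6A that was too weak to be called. Of 8 skeletal muscle fibre markers with any peak, among them CKM, DES and the fast myosins MYH1, MYH2 and MYH4, 7 had one in all 6 lists. ACTA1, TTN and NEB had none, and the RefSeq table gives TTN and NEB no curated transcript that could carry one. Peaks were also listed on markers of other cells. In all 6 lists these were 2 of 3 endothelial markers with any peak (PECAM1 and CDH5), 2 of 3 macrophage markers (CD68 and CD14), 3 of 3 fibro-adipogenic, 1 of 4 adipocyte, 1 of 2 smooth muscle and 0 of 3 satellite cell markers. In full, 6 endothelial, 5 macrophage, 5 fibro-adipogenic, 5 adipocyte, 4 smooth muscle and 6 satellite cell markers were looked up. Among them COL3A1, PLIN1 and ACTA2 had a curated transcript and no peak. The rest of those without a peak had no curated transcript. Over all genes with a peak, the share with one in all 6 lists was 35.7%. The part of these other cells in the MEF2C peaks was not tested.

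Both genes carried peaks in every list. MEF2A had 2, 2 and 3 peaks in Large White and 2, 2 and 2 in Ningxiang. MEF2C had 3, 2 and 3 in Large White and 3, 3 and 3 in Ningxiang. Of all genes with a peak, 35.7% had one in all 6 lists. The other family members, MEF2B and MEF2D, had no listed peak; RefSeq gives them model transcripts only, and no model transcript carries a peak in these lists. The 30 peaks fell on a few sites. MEF2A had a peak across the junction of exons 9 and 10 and another in the 3′ untranslated region in every list. MEF2C had a peak across the junction of exons 8 and 9 and another over exon 2 in every list, and one farther along the last exon in 5 lists. Exon numbers given here start at the 5′ end of the named transcript.

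**Figure D1:**
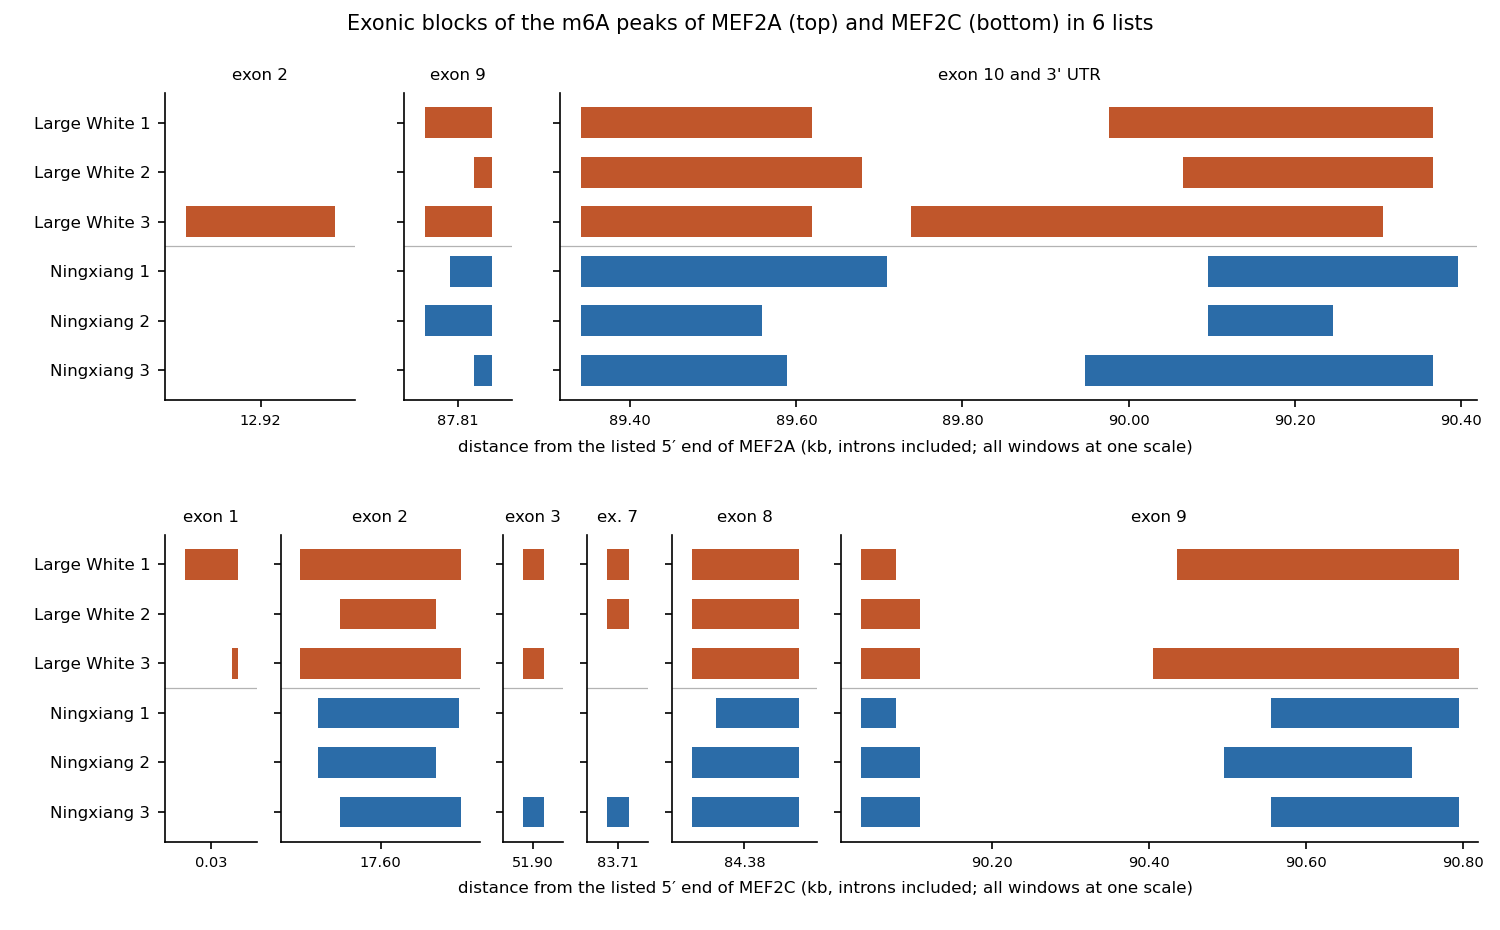
Exonic blocks of every MEF2A and MEF2C peak, drawn as bars, for 3 Large White lists above 3 Ningxiang lists; the x axis gives the distance from the listed 5′ end in kb, and windows leave out the introns and exons without a peak. The exon 2 peak of MEF2A stands in Large White replicate 3 alone, and the last-exon peak of MEF2C farther from the splice junction is missing from Large White replicate 2.

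MEF2A lies on the plus strand of chromosome 1 (susScr11). Its peaks were annotated with 2 curated transcripts: NM_001099698, from 138417886 to 138507608, with 10 exons, and NM_001097421, from 138430710 to 138508639, which runs 1031 bases farther at the 3′ end. RefSeq starts the MEF2A gene 19616 bases upstream of the listed start of NM_001099698, so peaks in that part could not be listed for either transcript. The peak across the junction of exons 9 and 10 covered the last 22 to 81 bases of exon 9 and then 218 to 368 bases of exon 10. In exon 10 it began at 138507227, the edge at the splice junction, in all 6 lists. The stretch from there to 138507444, 218 bases, was covered in every list. In exon 9 the stretch shared by all lists was 138505712 to 138505733. Over both exons the peak covered 359, 360 and 359 exonic bases in Large White and 419, 299 and 270 in Ningxiang. Large White lists were nearly alike in this length, while Ningxiang lengths lay on both sides of them. The placement did differ within Large White. Replicates 1 and 3 covered 81 bases of exon 9 and ended at 138507504, while replicate 2 covered 22 and ended at 138507564. The exon 10 block stopped 14 to 164 bases short of the listed end of NM_001099698.

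The second MEF2A peak was listed in the 3′ untranslated region and lay past the end of NM_001099698, on NM_001097421. It covered 390, 300 and 568 bases in Large White and 300, 150 and 419 in Ningxiang. The stretch common to all lists ran from 138507982 to 138508131, 150 bases. From the junction peak to this one 119 to 537 bases had no peak, with the shortest gap in Large White replicate 3 and the longest in Ningxiang replicate 2. Of the plus-strand genes with a peak in all 6 lists, 30.1% had one listed in a 3′ untranslated region in every list, as MEF2A did. Minus-strand genes such as MEF2C were not counted for this share. The remaining MEF2A peak, in exon 2 at 138430716 to 138430895, was in Large White replicate 3 alone. It begins within a few bases of the listed start of NM_001097421 and was the weakest of the 30, with a log10 p of -3.78 where the median of that list was -11.

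MEF2C lies on the minus strand of chromosome 2, and its peaks were annotated with NM_001044540 alone, 9 exons from 96126180 to 96217063. The junction peak took in 105 to 136 bases of exon 8 and the adjoining 45 to 75 bases of exon 9. Common to all lists were 96132615 to 96132719 in exon 8 and 96126986 to 96127030 in exon 9. In 3 of 6 lists, Large White replicates 1 and 2 and Ningxiang replicate 3, it went on into exon 7 for 29 bases. Its exonic length was 210, 240 and 210 bases in Large White and 150, 210 and 240 in Ningxiang, so the groups overlapped.

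Farther along the last exon of MEF2C, a second peak began 297 to 477 bases from the junction peak. It covered 359 and 389 bases in Large White replicates 1 and 3, none in Large White replicate 2, and 239, 240 and 239 bases in Ningxiang. The 2 Large White peaks were longer than all 3 Ningxiang peaks, while the remaining Large White list had no peak there at all. Where present, it shared 96126329 to 96126508. It was annotated as exon, and whether it lies in the 3′ untranslated region was not tested. In 4 of these 5 lists the peak ended 90 bases from the listed 3′ end of the transcript. RefSeq extends the MEF2C gene 3773 bases beyond that end and 79864 bases upstream of the listed start, through 48 model transcripts, so peaks in those parts could not be listed for NM_001044540.

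The third MEF2C site was at the 5′ side. All 6 lists had a peak over exon 2, where 96199394 to 96199514 was covered in each. Exon 2 held 204, 121 and 204 covered bases in Large White and 180, 150 and 153 in Ningxiang, which overlap. In 3 lists, Large White replicates 1 and 3 and Ningxiang replicate 3, the same peak went on into 27 bases of exon 3. In Large White replicates 1 and 3 it also reached exon 1, over 68 and 8 bases. Long introns separate these exons, so the genomic span of this peak was 51910, 121 and 51850 bases in Large White and 180, 150 and 34361 in Ningxiang, while its exonic length was 299, 121 and 239 bases in Large White and 180, 150 and 180 in Ningxiang.

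Peak edges within exons differed between lists mostly by multiples of about 30 bases, such as 30, 60 and 90. Equal edges inside an exon are therefore equal steps of the peak calling and not positions known to the base. Where a peak crosses a splice junction, its blocks meet the exon boundaries, so equal edges there follow from the exons and are not agreement between lists.

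Within each list, the fold and the p-value of the MEF2A and MEF2C peaks are described with no test. The fold is the authors' own linear ratio of the antibody-enriched to the input signal of a peak, and the p-value is theirs too; both are given to describe peaks within a list, not to compare methylation between breeds. All 17 MEF2C peaks had a fold below the median of their list, from 1.65 to 2.32, where list medians were 2.42 to 2.605. Of genes with peaks in all 6 lists, 10.8% had every peak below the list median, as MEF2C did. Of 13 MEF2A peaks, 10 were above it, and the range was 2.02 to 4.6. The highest fold of a list was above the median in every list for 33.3% of the genes in all 6 lists, MEF2A among them. The best fold was higher for MEF2A than for MEF2C in 6 of 6 lists, and in 5 of 6 every MEF2A fold was above every MEF2C fold.

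By p the order was the other way round. The lowest log10 p of MEF2A was -27.6, -25 and -22.8 in Large White and -15.7, -20.2 and -27.6 in Ningxiang. That of MEF2C was -66.8, -70.7 and -57.3 in Large White and -50.6, -39.1 and -70.9 in Ningxiang. MEF2C had the stronger peak in 6 of 6 lists, and all 17 of its peaks were stronger than the list median, against 10 of 13 for MEF2A. Of genes with peaks in all 6 lists, 26.1% had every peak stronger than the list median. A p-value depends on the number of reads as well as on the fold, and read counts were not analysed here.

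**Figure D2:**
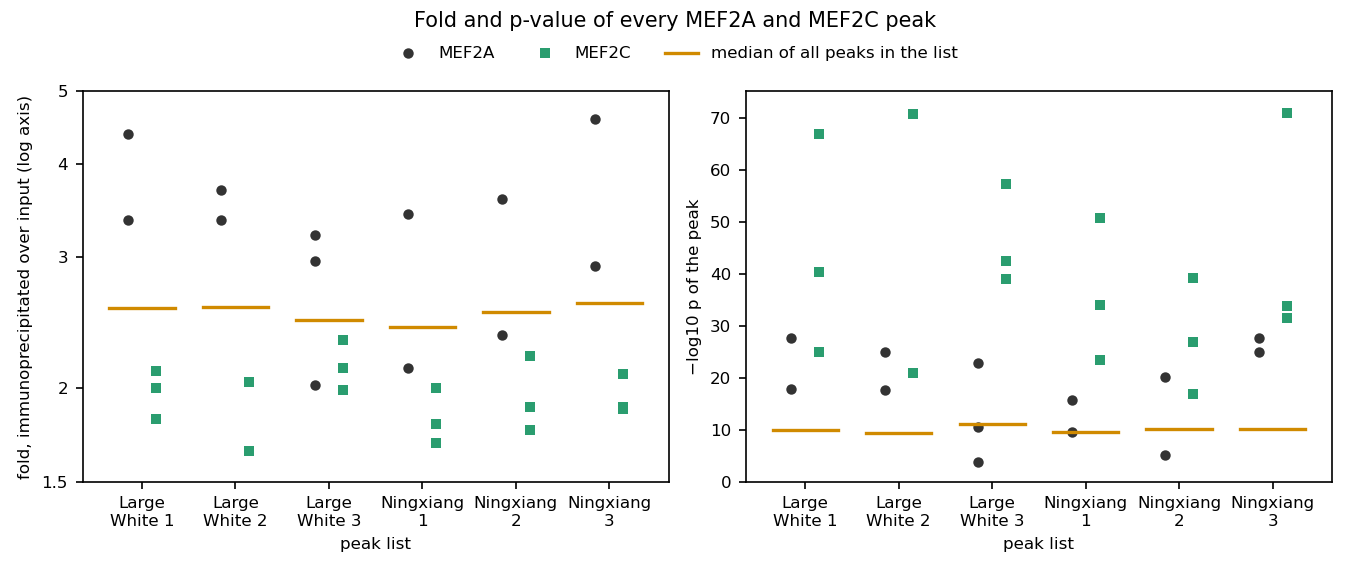
Fold over input on a log axis (left) and −log10 p (right) of every MEF2A peak (circles) and MEF2C peak (squares) in 3 Large White lists and 3 Ningxiang lists, with the median of all peaks in each list as a bar. Every MEF2C square lies below the fold median of its list and above its −log10 p median.

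Among the MEF2A peaks, the one in the 3′ untranslated region had a fold of 4.39, 3.69 and 3.21 in Large White and 3.43, 2.36 and 4.6 in Ningxiang. The junction peak had 3.36, 3.36 and 2.96 in Large White and 2.13, 3.59 and 2.92 in Ningxiang. The 3′ untranslated peak had the higher fold in 5 of 6 lists, Ningxiang replicate 2 being the exception, and the junction peak the lower p in 4 of 6. In Ningxiang replicate 1 the junction peak was at the middle of its list, with a log10 p of -9.48 against a median of -9.465. In Ningxiang replicate 2 the 3′ untranslated peak was weak, at -5.09 against -10.1.

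Among the MEF2C peaks, the junction peak had the lowest p of the gene in 6 of 6 lists and was stronger than 87.7% to 92.2% of the peaks in its list. Its fold hardly varied, with 2, 2.04 and 1.99 in Large White and 1.79, 1.89 and 2.09 in Ningxiang. The more distal peak of the last exon had 2.11 and 2.13 in Large White replicates 1 and 3, and 1.69, 2.21 and 1.88 in Ningxiang. The peak over exon 2 had 1.82, 1.65 and 2.32 in Large White and 2, 1.76 and 1.89 in Ningxiang. Large White replicate 2 thus held the lowest fold of the 17 beside the missing last-exon peak, although its junction peak was among the strongest by p, at -70.7.

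The breeds were compared by the number of peaks and by the exonic bases that peaks covered, with exact two-sided permutation tests. With 3 lists against 3 the smallest p is 0.1, so no comparison could pass 0.05. MEF2A peaks covered 749, 660 and 1107 exonic bases in Large White and 719, 449 and 689 in Ningxiang. The ranges overlapped: Large White replicate 2 lay below 2 of the Ningxiang lists, and Large White replicate 3 was the longest. Means were 839 ± 237 bases in Large White and 619 ± 148 in Ningxiang (SD, n = 3 each), a difference of 219.7 with an exact permutation p of 0.3, and 1 after Benjamini-Hochberg adjustment over the 4 comparisons. Without Large White replicate 3 the difference was 85.5, and without Ningxiang replicate 2 it was 134.7. Leaving out any other list made it larger, up to 309 without Large White replicate 2. MEF2A had 2.33 ± 0.577 peaks in Large White and 2 ± 0 in Ningxiang (SD, n = 3 each; exact permutation p = 1, adjusted p = 1), and the difference was 0 without Large White replicate 3.

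MEF2C peaks covered 868, 361 and 838 exonic bases in Large White and 569, 600 and 659 in Ningxiang. The Ningxiang lists were close together and lay between the Large White extremes. Means were 689 ± 284 bases in Large White and 609 ± 45.7 in Ningxiang (SD, n = 3 each), a difference of 79.7 (exact permutation p = 0.7, adjusted p = 1). The difference was 243.7 without Large White replicate 2, 5.17 without Large White replicate 3, and turned to -9.83 without Large White replicate 1. MEF2C had 2.67 ± 0.577 peaks in Large White and 3 ± 0 in Ningxiang (exact permutation p = 1, n = 3 each, adjusted p = 1), and without Large White replicate 2 the difference was 0. Counted over genomic span, introns included, the difference in covered bases was 23290.3 (exact permutation p = 0.2), since the peak over exon 2 crosses long introns. Of the 2 genes, 0 had exonic bases that did not overlap between the breeds. Over all genes with a peak in all 6 lists, Large White was higher without overlap in 10.8% and Ningxiang in 3.50% for exonic bases. For peak number, Large White was higher in 2.33% and Ningxiang in 0.908%.

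**Figure D3:**
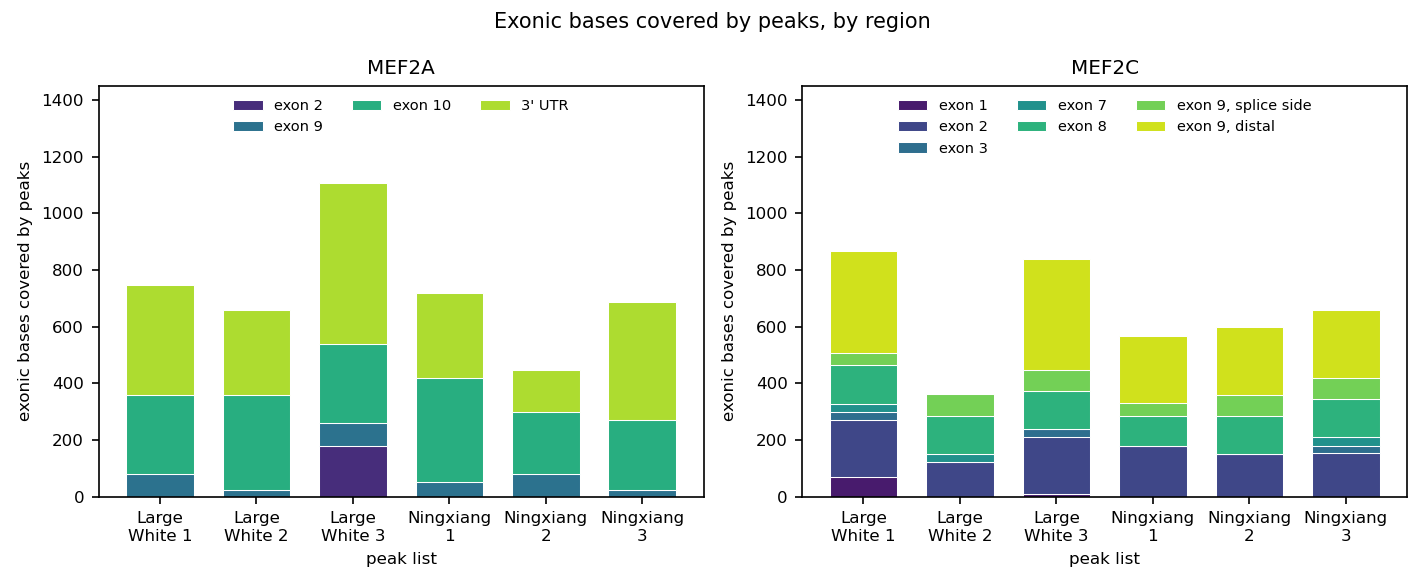
Exonic bases covered by peaks, stacked by region, for MEF2A (left) and MEF2C (right) in 3 Large White lists and 3 Ningxiang lists; each bar is 1 list. MEF2A reaches 1107 bases in Large White replicate 3, where the exon 2 peak adds 180, and MEF2C has 361 in Large White replicate 2, where the distal peak of exon 9 is missing.

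Both genes had a peak whose midpoint lay in the last 10% of the listed gene in every list. Of genes with a peak in all 6 lists 33.7% did so. Both also had a peak across a splice junction in every list, which held for 51.9% of these genes. Averaged over the 6 lists, MEF2A peaks covered 729 exonic bases and MEF2C peaks 649, against a median of 429 over the 771 genes with a peak in all lists. The same positions recurred: the mean Jaccard index, the shared over the combined exonic bases of a pair of lists, was 0.606 for MEF2A and 0.623 for MEF2C over 15 pairs, against a median of 0.552. These values exceeded those of 59.8% and 63.9% of the genes. For MEF2A it averaged 0.591 within Large White, 0.568 within Ningxiang and 0.624 between breeds. For MEF2C it averaged 0.529 within Large White, 0.722 within Ningxiang and 0.622 between breeds. The MEF2C pairs ran from 0.369 to 0.838 within Large White (3 pairs) and from 0.683 to 0.785 within Ningxiang (3 pairs). Between breeds they ran from 0.411 to 0.725 (9 pairs). The highest value was thus a Large White pair. The pairs share lists, so these are descriptions.

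Of 32 partners of MEF2, 14 had a peak in any list and 8 in all 6, with 10 to 11 per list in Large White and 10 to 14 in Ningxiang. Only 15 of the 32 have a curated transcript. MYOG, the bHLH factor of differentiation, had peaks in all 6 lists, with a best fold of 2.25 to 2.98. MYF5 had one in 2 of 3 Large White and 3 of 3 Ningxiang lists, MYF6 in 3 of 3 Large White and 1 of 3 Ningxiang lists, and MYOD1 in 0 of 3 Large White and 2 of 3 Ningxiang lists. NFATC1 and NFATC2, calcium-responsive factors, had peaks in all 6 lists with best folds of 3.08 to 7.09 and 4.57 to 11.5. NCOA2, a coactivator of MEF2C in muscle, had 30 peaks over the 6 lists, and PPARGC1A, a coactivator for mitochondrial genes, had 15. TEAD1, SMAD3 and HDAC3 also had peaks in all 6 lists. The class IIa deacetylases HDAC4, HDAC5, HDAC7 and HDAC9 had none, and none of them has a curated transcript.

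Of 25 signalling genes 7 had a peak, out of 9 with a curated transcript, and 4 had one in all 6 lists. CAMK2G, a calcium-dependent kinase subunit, had best folds of 1.89 to 2.73. PRKAA1 and PRKAA2, the catalytic subunits of AMP-activated kinase, had 4.10 to 7.95 and 2.16 to 4.44. RCAN1, an inhibitor of calcineurin, had 2.03 to 2.83. PPP3CA, a catalytic subunit of calcineurin, had a peak in 2 of 3 lists of each breed, and CAMK1 in 3 of 3 Large White and 1 of 3 Ningxiang lists. MAPK14, the p38 kinase that phosphorylates MEF2 proteins, had no peak and no curated transcript.

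Of 32 genes known as MEF2 targets or muscle genes with MEF2 sites, 16 had a peak, out of 21 with a curated transcript, and 9 had one in all 6 lists. CKM, muscle creatine kinase, had a best fold of 1.71 to 1.93 and DES, desmin, 1.73 to 1.91. XIRP1, an actin-binding protein of cell junctions, had the most peaks of the list, 40, with best folds of 3.03 to 4.39. MYOZ2, a Z-disc protein, had 2.5 to 3.13, and MSTN, the inhibitor of muscle growth, 2.5 to 4.48. JUN and KLF2, which are MEF2 targets in other cells, had 2.63 to 8.76 and 3.23 to 6.69. Of these 16, MYOG, PPARGC1A and MYF6 stand among the partners too. In the 4 lists 0 genes had a peak in every list of one breed and in no list of the other. Over all genes with a peak, 1.34% had one in every Large White list alone and 0.741% in every Ningxiang list alone. Of genes with any peak 57.1% of the partners, 57.1% of the signalling genes and 56.2% of the targets had one in all 6 lists, where the share over all genes was 35.7%. The lists were picked among well-known genes with earlier results of these data known, so the gap is a description.

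**Figure D4:**
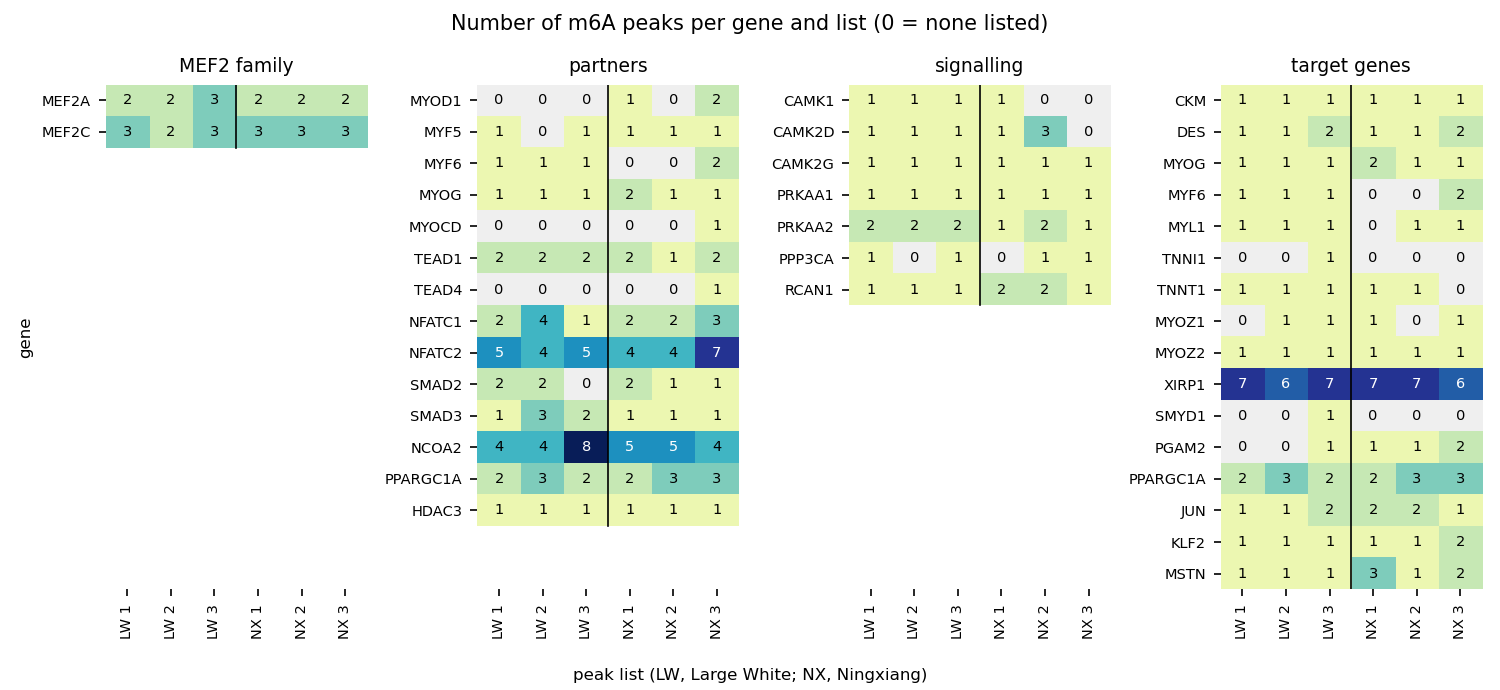
Number of peaks per gene (rows) in each list (columns, Large White left of Ningxiang) for the genes with any peak among the MEF2 family, its partners, signalling genes and targets; darker cells hold more peaks and 0 is printed where none was listed. XIRP1 has 6 or 7 peaks in every list, while MYOD1 has none in the Large White lists or in Ningxiang replicate 2.

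The genes most like each member were taken by the smallest Euclidean distance over the 6 values of log2 exonic bases, among genes with a peak in all 6 lists. For MEF2A they were PDE4B, a phosphodiesterase, at a distance of 0.50, TOR1AIP2 at 0.52 and NOP2, an RNA methyltransferase of the nucleolus, at 0.52. The median distance over the other 770 genes was 2.74. For MEF2C they were KAT7, a histone acetyltransferase, at 0.49, AP1M1, a clathrin adaptor subunit, at 0.65 and IL4R, the interleukin-4 receptor chain, at 0.69, where the median was 2.57. KAT7 covered 836, 390 and 925 exonic bases in Large White and 776, 567 and 658 in Ningxiang. MEF2C had 361 in Large White replicate 2, where KAT7 was lowest too; both were matched on these values. PDE4B covered 719, 686 and 836 in Large White and 808, 418 and 596 in Ningxiang, lowest in Ningxiang replicate 2, as MEF2A was. PDE4B and MEF2A too were matched on these values, so a like profile follows from the choice.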

How the data were processed

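The 12 samples give 6 deposited peak lists, 1 per replicate, each assigned to the sample whose description names it; peaks were thus called per replicate. Build susScr11, ChIPseeker 1.30.2, HOMER and FastQC 0.11.9 were used, per the submitters' processing notes. For the aligner and for the peak caller, a name is not given in the sources used here. Per the file headers, each peak has a linear fold ratio of immunoprecipitated over input, a p-value, and its log10 and adjusted log10, a score used to rank peaks. These are the authors' values. Reads were not analysed here, so depth is unknown and no interval is given.

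Starts count from 0 and are printed after adding 1. Exonic bases were the merged deposited blocks; regions were blocks merged over the 6 lists, and sharing needed 1 base. Minus-strand exon numbers, which rise along the chromosome in the files, were turned round; the exon of a later block was counted on from the first. Gene names and curated transcripts came from the RefSeq table of Sscrofa11.1. No sequence is shown.

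Breeds were compared by exact two-sided permutation over the 20 assignments, Benjamini-Hochberg adjusted over 4 comparisons. Named genes were both members, the genes of the 4 MEF2 lists, and the 3 nearest genes of each; cell type markers came from their own lists, and those named were picked as examples. Members and lists were chosen with earlier results of these data known; the shares by midpoint, junction, 3′ untranslated class and by the fold or p median were chosen after the values were seen. Alternatives were the stronger 50% of peaks by p in each list, equal list length (2034 peaks), an adjusted p of 0.001 or lower, genomic span, half-region overlap, a replicate block and each replicate left out. Scripts ran under Python 3.11.15 with NumPy 2.4.6 and pandas 2.3.3, and the counting was tested on simulated data.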

Additional observations from a re-analysis of the deposited data

How the results depend on the processing

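No breed comparison passed 0.05 under any alternative run, nor could one. For MEF2A peaks per list the difference, Large White minus Ningxiang, was 0 with the stronger 50% of peaks by p, at equal list length and with an adjusted p of 0.001 or lower. Equal list length and the adjusted p drop the exon 2 peak of Large White replicate 3. The stronger 50% leaves 2, 2 and 1 MEF2A peaks in Large White and 2, 1 and 2 in Ningxiang, as the 3′ untranslated peaks of Large White replicate 3 and Ningxiang replicate 2 are dropped too, and MEF2A regions in all lists come to 2. Leaving out each replicate in turn gave 0 to 0.5 for MEF2A peaks, -0.5 to 0 for MEF2C peaks, 85.5 to 309 exonic bases for MEF2A and -9.83 to 243.7 for MEF2C. The lowest exact permutation p with a replicate left out was 0.1, for the exonic bases of both genes without Large White replicate 2. Regions present in all lists stayed at 3 for MEF2A and were 3 to 4 for MEF2C with a replicate left out. With at least 50% of a region required, MEF2A regions in all lists fell to 1, as merged regions are longer than the shorter peaks, while MEF2C kept 3. With the stronger 50% of peaks, MEF2A exonic bases differed by 20.3, with an exact permutation p of 0.7. With a replicate block, the MEF2A difference of 219.7 exonic bases had an exact sign-flip p of 0.25, the smallest that 3 pairs allow, and the MEF2C difference of 79.7 had 0.75; both peak number differences, 0.333 and -0.333, had 1. Over the 771 genes the deviations of same-numbered lists had r = 0.0264, -0.00296 and -0.00842. Lists with different numbers had r from -0.0643 to 0.0669. With 3 lists per breed these values cannot show that a pairing is absent. The labels do not say that a number pairs pigs, so the numbers are not taken as pairs. Of the recomputed breed differences 36 of 42 kept their sign, and 17 of 20 recomputed region counts were equal to those with all peaks and lists. Some of these could not change, as a replicate block leaves the difference itself as it was. The stronger 50%, equal list length and adjusted p settings also left all MEF2C values as they were, so these totals overstate how stable the results are.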
